A study of Drosophila melanogaster with 32 samples.

Results

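The Smurf assay feeds flies a blue food dye (FD&C #1) that normally stays in the gut, and a fly whose intestine has become permeable turns blue throughout. Such a fly is called a Smurf, and a blue-fed fly whose dye stays in the gut is a non-Smurf. The data described here are the Smurfs that appeared early in life, at 20 days of age, and the non-Smurfs of the same age. They comprise 8 of the 32 RNA-seq samples of the series, 4 Smurf and 4 non-Smurf, chosen by the age and condition that their labels give. The question asked of them was how the transcriptome of a young Smurf differed from that of a non-Smurf of its age.

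All samples came from the Drs-GFP line, each being a pool of 8 whole mated females. Drs-GFP is a reporter line in which the promoter of the antimicrobial peptide gene drosomycin drives GFP. Smurfs and non-Smurfs thus shared the genotype, the dye, the food and the age. In each group 1 pool was collected as mixed (Smurf M-4, non-Smurf M-1). The flies of Smurf M-4 were at an unknown time after the transition, and non-Smurf M-1 was their age-matched pool. In each group 3 pools were collected 1 day later (Smurf 1d-d, 1d-e and 1d-f, non-Smurf 1d-a, 1d-b and 1d-c). The Smurfs of these later pools had turned within the last 24 hours. The model is limited to 1 isogenic line, to females, and to whole bodies in which every organ contributes RNA to the same library. In such bulk samples fewer cells of a type and less RNA per cell cannot be told apart. The p-values measure the spread between pools of 1 population.

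Smurf libraries held between 13423868 and 20753029 counted reads and non-Smurf libraries between 12572809 and 16110543. The biological coefficient of variation between pools was 0.164 in Smurfs and 0.116 in non-Smurfs. No pair of replicate pools was a repeat of the same library, since the chi-square per degree of freedom lay between 6.79 and 28.0 in the 12 pairs. Markers of the germline (vas), fat body (Yp1), gut (Jon65Aiii), muscle (Mhc), eye (ninaE) and neurons (elav) had reads in all 8 pools. The 24 male accessory gland and testis markers summed to between 3.34 and 4.51 counts per 1000000 reads (CPM) in Smurfs and between 3.08 and 3.62 CPM in non-Smurfs.

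Several organs of the fly are known to be involved when the gut barrier fails. The fat body, the organ that combines the roles of liver and adipose tissue, secretes antimicrobial peptides (AMPs) into the haemolymph when microbial peptidoglycan is sensed through the Imd pathway or when fungal and bacterial products activate the Toll pathway. The same organ makes yolk for the ovary and stores fat and glycogen. In the ovary, follicle cells wrap each maturing egg first in a vitelline membrane and then in a chorion, so that their transcripts mark the late stages of oogenesis. The gut epithelium secretes digestive proteases and is sealed by smooth septate junctions.

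Of 9944 genes with enough counts to be tested, 1898 were differentially expressed (DEGs; edgeR quasi-likelihood F test, Benjamini-Hochberg adjusted p under 0.05), which is 19.1% of the genes tested. In Smurfs 917 were upregulated (9.22%) and 981 downregulated (9.87%). The decreases were larger, with a median log2FC (log2 of Smurf over non-Smurf) of −0.80 among downregulated genes against 0.40 among upregulated ones. A log2FC over 1 was reached by 176 upregulated genes and one under −1 by 359 downregulated genes. The median over all genes tested was 0.03. The groups did not overlap in 1728 of the 1898 DEGs, so non-overlap of a named DEG below is a trait of most DEGs. In the 1-day pools alone, 3 against 3, all 1897 of these genes that could be tested kept their direction and 1011 were called. Those pools also entered the fit that gave the calls, so the kept direction is not independent evidence. The number of DEGs was 1145 without non-Smurf 1d-b, and the upregulated share of DEGs was 42.3% when TMM was replaced by RLE size factors, against 48.3%.

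The 10 largest increases among well-expressed DEGs were CecB, CecA1, AttB, Hsp70Bb, CecA2, CecC, DptB, Dro, AttA and edin. All of them except Hsp70Bb, a heat shock chaperone, are immune genes. The 10 largest decreases were CG43333, Cp7Fb, Cp7Fc, yellow-g2, CG13114, Muc4B, CG14834, Obp19c, Vm32E and yellow-g. Cp7Fb and Cp7Fc encode chorion proteins, Vm32E a vitelline membrane protein, and yellow-g and yellow-g2 are yellow family genes needed for a rigid eggshell.

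**Figure D1:**
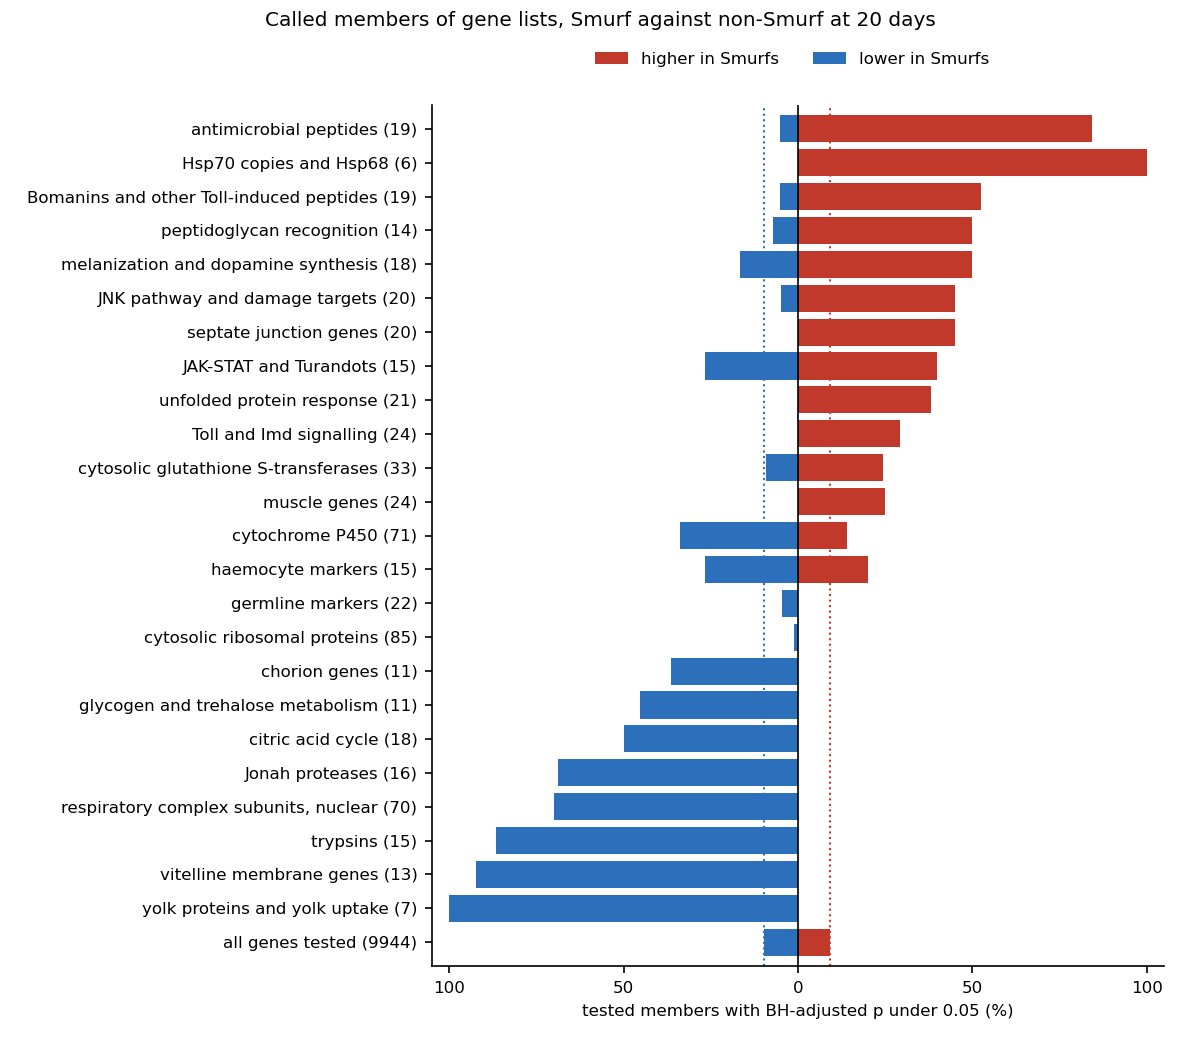
Percentage of the tested members of each gene list that was upregulated or downregulated in Smurfs at 20 days (horizontal axis, edgeR adjusted p under 0.05), for lists in rows. Dotted lines give the percentage over all genes tested, 9.22% upregulated and 9.87% downregulated. AMP genes (84.2% upregulated) and the yolk list, which includes fit (100% downregulated), lie far from them.

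Antimicrobial peptides are small secreted proteins that permeabilise or bind microbes. Of the 19 AMP genes tested, 16 were upregulated, 1 was downregulated (2 without Smurf 1d-e or Smurf 1d-f), and the median log2FC was 3.56. CecB (FBgn0000278, 3R from 30213315 to 30213797 on BDGP6.54), a cecropin that lyses bacterial membranes, had 115, 91, 252 and 209 reads in Smurfs, against 2, 1, 1 and 0 reads in non-Smurfs. Pooled over libraries this was a ratio of 139, with a 95% counting interval of 54.1 to 512, so that the gene was close to silent in every non-Smurf pool. The neighbouring cecropin CecA1 (FBgn0000276, 3R from 30210874 to 30211273) had 69.3, 63.9, 117 and 68.3 CPM in Smurfs, against 5.69, 1.15, 1.85 and 2.53 CPM in non-Smurfs (log2FC = 4.81, SE 0.41, adjusted p = 0.000386). CecC, a further cecropin, had 16.3, 13.7, 26.9 and 19.2 CPM in Smurfs, against 0.993, 1.02, 1.05 and 0.863 CPM in non-Smurfs (log2FC = 4.28, SE 0.25, adjusted p = 0.000113). For both genes the lowest Smurf pool was over the highest non-Smurf pool, and Smurf 1d-e was the highest.

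Among the peptides known for activity against Gram-negative bacteria, DptB, a diptericin, had 251, 172, 274 and 338 CPM in Smurfs, against 25.4, 11.8, 8.76 and 10.4 CPM in non-Smurfs (log2FC = 4.19, SE 0.35, adjusted p = 0.000386). AttC, an attacin chosen after its values were seen, had 661, 514, 797 and 878 CPM in Smurfs, against 96.7, 44.3, 46.6 and 56.039 CPM in non-Smurfs (log2FC = 3.55, SE 0.28, adjusted p = 0.000345), and it overlaps CG4744 on the other strand. Non-Smurf M-1 was the highest non-Smurf pool for both genes, still below each Smurf. The attacins AttA, AttB and AttD, the diptericin DptA and drosocin (Dro) had log2FCs of 3.94, 4.47, 3.36, 3.56 and 4.15, and each was upregulated in all 8 fits that left out 1 pool. Near-identical copies such as AttA with AttB and CecA1 with CecA2 can share reads, so their separate values are less certain than their sum.

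Drosomycin (Drs), an antifungal peptide and the classical readout of Toll, was the exception in its spread. It had 1197, 1189, 1374 and 506 CPM in Smurfs, against 681, 147, 211 and 129.6 CPM in non-Smurfs. The groups overlapped, because Smurf 1d-f was the lowest Smurf and non-Smurf M-1 lay above it, while the other non-Smurfs stayed below every Smurf. Drs was upregulated (log2FC = 1.87, SE 0.55, adjusted p = 0.0447), but it was not called without Smurf 1d-d (0.0809), Smurf 1d-e (0.0972), Smurf M-4 (0.0855), non-Smurf 1d-a (0.108), non-Smurf 1d-b (0.121) and non-Smurf 1d-c (0.0805), with adjusted p in parentheses. In the 1-day pools alone it was called (log2FC = 2.65, adjusted p = 0.00562). Drsl5, a drosomycin-like gene, was the AMP gene that fell, with 6.43, 10.957, 9.47 and 10.3 CPM in Smurfs, against 19.7, 20.037, 27.4 and 19.4 CPM in non-Smurfs (log2FC = −1.22, SE 0.18, adjusted p = 0.00292). Its groups did not overlap. Drsl2, a further drosomycin-like gene chosen after its values were seen, was upregulated (log2FC = 1.08, SE 0.24, adjusted p = 0.0149). Metchnikowin (Mtk), an antifungal peptide, had a log2FC of 1.97 and was not called without non-Smurf 1d-a (0.052) and non-Smurf 1d-b (0.0583). Summed over the list, AMP genes took 3522, 3142, 4343 and 3346 CPM in Smurfs, against 1040.030, 299, 369 and 325 CPM in non-Smurfs. Non-Smurf M-1 stood above the other non-Smurf pools in this sum and below all Smurf pools.

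Bomanins and related short peptides, which are induced by Toll and needed for its defence, moved less. Of 19 tested, 10 were upregulated and 1 downregulated, with a median log2FC of 0.95. BaraA1, which encodes baramicin peptides, had 159, 139.980, 156 and 92.1 CPM in Smurfs, against 66.1, 35.4, 33.9 and 35.8 CPM in non-Smurfs (log2FC = 1.67, SE 0.25, adjusted p = 0.00297), with no overlap of the groups. BomBc3, a bicipital Bomanin, had 118, 125, 116 and 45.4 CPM in Smurfs, against 50.2, 21.9, 27.3 and 20.2 CPM in non-Smurfs (log2FC = 1.76, SE 0.37, adjusted p = 0.0125). Here Smurf 1d-f lay below non-Smurf M-1, as it did for Drs. BomS6, a short Bomanin, was the member that fell (log2FC = −0.86, SE 0.19, adjusted p = 0.0149). The number upregulated was 6 without Smurf M-4, Smurf 1d-d, Smurf 1d-e, non-Smurf 1d-a or non-Smurf 1d-c, and 5 without non-Smurf 1d-b.

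Peptidoglycan recognition proteins sense bacterial cell wall or degrade it. Of 14 tested, 7 were upregulated and 1 downregulated (median 0.65). PGRP-SD, a secreted receptor upstream of Imd, had 50.2, 58.4, 61.2 and 57.6 CPM in Smurfs, against 26.9, 25.1, 20.986 and 23.4 CPM in non-Smurfs (log2FC = 1.24, SE 0.09, adjusted p = 0.000209). All Smurf pools lay between 50.2 and 61.2 CPM, a narrow range beside that of the AMPs. PGRP-SB1, an amidase, rose as well (log2FC = 1.28, SE 0.23, adjusted p = 0.00671). PGRP-LB, an amidase that cleaves peptidoglycan and dampens Imd, and PGRP-LF, a receptor-like inhibitor of Imd, were chosen after their values were seen and had log2FCs of 0.92 and 1.01, both upregulated.

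Of 24 genes of Toll and Imd signalling, 7 were upregulated, with a median log2FC of 0.21. In edgeR 0 were called lower, with 1 at an unadjusted p under 0.05, and DESeq2 called 1 lower. Rel, the NF-κB factor of the Imd pathway, had 438, 346, 387 and 286 CPM in Smurfs, against 211, 213, 201 and 196 CPM in non-Smurfs (log2FC = 0.83, SE 0.11, adjusted p = 0.00233). Smurf 1d-f was the lowest Smurf pool and was still above each non-Smurf. Rel overlaps Nmdmc on the same strand. The inhibitor pirk, which takes Imd receptors out of action, was upregulated more (log2FC = 1.39, SE 0.13, adjusted p = 0.000706). The serpin nec, a brake on Toll activation in the haemolymph, was upregulated (log2FC = 1.02, SE 0.22, adjusted p = 0.0125). The Toll factor dl and its inhibitor cact had smaller increases, with log2FCs of 0.40 and 0.33 (SE 0.06 each), both called in all 8 fits that left out 1 pool.

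**Figure D2:**
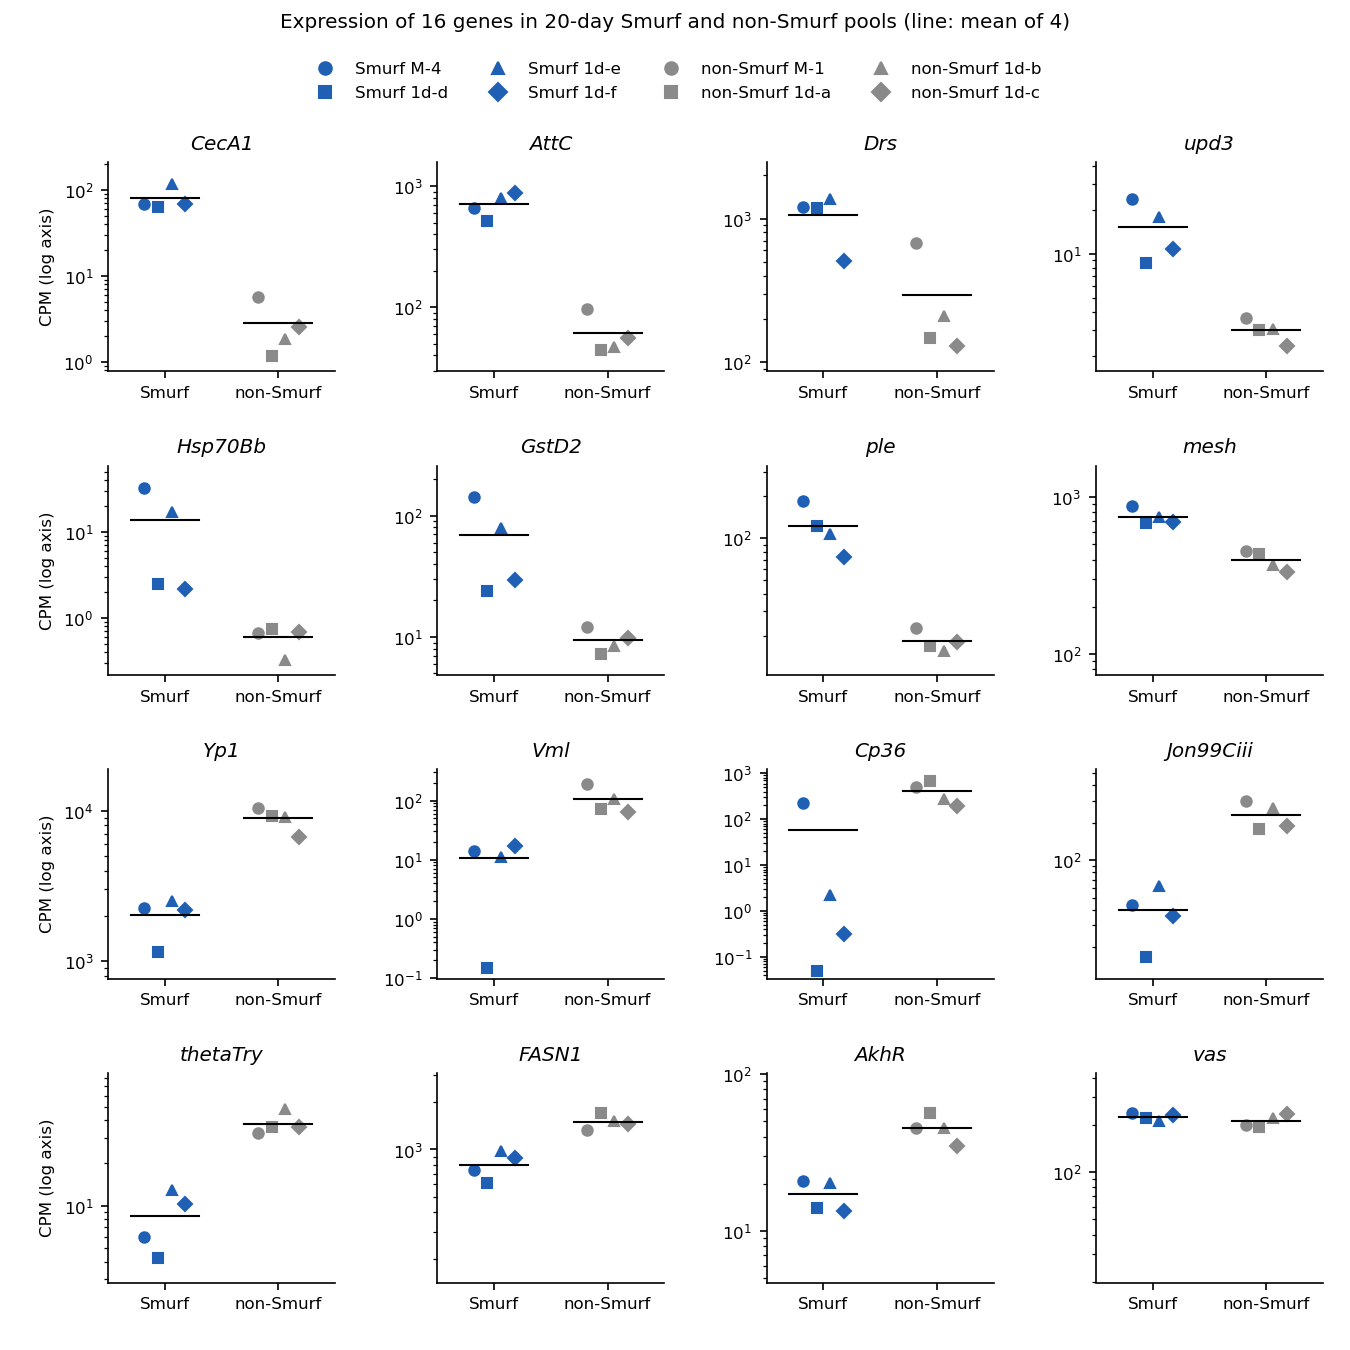
Expression of selected genes in each pool at 20 days (vertical axis, CPM, log scale), Smurfs left of non-Smurfs, with 1 point per pool and a line at the group mean. A value of 0 CPM is drawn at 0.05. CecA1 pools of the groups stay apart, while Drs and Cp36 pools overlap.

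The cytokines of the JAK-STAT pathway, which signal from damaged gut and other tissue, were among the rising genes. Of 15 tested members of the pathway and its stress peptides, 6 were upregulated and 4 downregulated, with a median of 0.08. The ligand upd3 had 23.7, 8.64, 17.9 and 10.7 CPM in Smurfs, against 3.64, 2.99, 3.06 and 2.34 CPM in non-Smurfs (log2FC = 2.34, SE 0.33, adjusted p = 0.00239). Smurf M-4 and Smurf 1d-e were the high pools and Smurf 1d-d and Smurf 1d-f the low ones, all above the non-Smurfs. The ligand upd2 had a log2FC of 2.97 and the feedback inhibitor Socs36E, a target of the pathway, one of 1.53, both called in all 8 fits that left out 1 pool. Listericin, an antibacterial peptide gene that the pathway controls, was upregulated (log2FC = 2.39, SE 0.26, adjusted p = 0.00098).

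The 4 members that fell included Turandots, secreted stress peptides of the fat body that are usually described as induced by stress. TotC had 47.4, 12.3, 17.8 and 13.1 CPM in Smurfs, against 93.3, 111, 134 and 110.2 CPM in non-Smurfs (log2FC = −2.31, SE 0.40, adjusted p = 0.00548). Smurf M-4 was the highest Smurf pool, and it too lay below every non-Smurf. TotX had 4.32, 1.45, 4.66 and 2.26 CPM in Smurfs, against 9.33, 26.3, 20.022 and 17.3 CPM in non-Smurfs (log2FC = −2.50, SE 0.40, adjusted p = 0.00407), with the groups apart. TotA had a log2FC of −1.66 and was not called without Smurf 1d-d (0.051), Smurf 1d-e (0.0504) and non-Smurf 1d-b (0.0597). The number of members called lower was 2 without Smurf 1d-d, Smurf 1d-e or non-Smurf 1d-b.

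Of 20 genes of the JNK stress kinase pathway and its damage targets, 9 were upregulated and 1 downregulated (2 without Smurf 1d-f), with a median of 0.31. Ets21C, a transcription factor induced by JNK, had 57.9, 21.6, 46.4 and 17.3 CPM in Smurfs, against 7.22, 6.11, 7.16 and 4.13 CPM in non-Smurfs (log2FC = 2.55, SE 0.40, adjusted p = 0.00392). Gadd45, a stress and DNA damage response gene, had 41.1, 24.2, 42.4 and 18.5 CPM in Smurfs, against 10.8, 11.9, 8.60 and 7.40 CPM in non-Smurfs (log2FC = 1.71, SE 0.28, adjusted p = 0.00461). In both genes Smurf M-4 and Smurf 1d-e were again the high pools, and no Smurf pool reached down to the non-Smurf range. The phosphatase puc, which feeds back on JNK, and the matrix metalloprotease Mmp1 had log2FCs of 0.50 and 0.60. The TNF ligand egr was the downregulated member (log2FC = −0.65, SE 0.14, adjusted p = 0.0146). In the 1-day pools alone 5 members were called higher.

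ImpL2, a secreted protein that binds insulin-like peptides, had 435, 162, 302 and 139 CPM in Smurfs, against 118, 90.7, 115 and 84.6 CPM in non-Smurfs (log2FC = 1.35, SE 0.34, adjusted p = 0.0244). Its lowest Smurf pool, 1d-f, was above the highest non-Smurf pool, and the call was not made without Smurf 1d-e (0.058), non-Smurf 1d-a (0.0702), non-Smurf 1d-b (0.0578) and non-Smurf 1d-c (0.0541). It overlaps CG46460 on the same strand. Of 25 genes of the insulin pathway, ImpL2 included, 7 were upregulated (28%) and 1 downregulated (4%), against 9.22% and 9.87% over all genes tested. The upregulated count was 4 without non-Smurf 1d-a and 3 without non-Smurf 1d-b or Smurf 1d-e. Thor, the translational repressor 4E-BP, had 317, 246, 279.8 and 244 CPM in Smurfs, against 155, 166, 154 and 132 CPM in non-Smurfs (log2FC = 0.84, SE 0.10, adjusted p = 0.00134), with the groups well apart.

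The Smurf pools were divided in the inducible heat shock proteins. These chaperones, nearly silent in unstressed flies, refold damaged proteins. Hsp70Bb (FBgn0013278, 3R from 12505793 to 12508139) had 32.7, 2.47, 17.1 and 2.15 CPM in Smurfs, against 0.662, 0.747, 0.322 and 0.678 CPM in non-Smurfs (log2FC = 4.46, SE 1.00, adjusted p = 0.0154). Smurf M-4 and Smurf 1d-e carried most of the reads, and Smurf 1d-d and Smurf 1d-f were only modestly above the non-Smurfs. Hsp68 had 80.9, 12.7, 66.6 and 9.74 CPM in Smurfs, against 7.68, 6.93, 6.9955 and 7.71 CPM in non-Smurfs (log2FC = 2.54, SE 0.66, adjusted p = 0.0287), with the same order of pools. The 5 Hsp70 copies tested and Hsp68 were all upregulated, with a median log2FC of 2.89. The copies are near-identical, so their sum is the safer value. With Hsp68 they summed to 175, 24.1, 135 and 20.1 CPM in Smurfs, against 12.5, 12.7, 11.7 and 13.7 CPM in non-Smurfs. Of the 6 genes, edgeR called 0 in the 1-day pools alone (6 with an unadjusted p under 0.05), 1 was called without non-Smurf M-1, non-Smurf 1d-a, non-Smurf 1d-b or Smurf 1d-e, and 2 without Smurf M-4 or non-Smurf 1d-c. Hsp70Bb itself was not called without non-Smurf 1d-b (0.0507), and Hsp68 was not called without Smurf 1d-e (0.0656), Smurf M-4 (0.0643), non-Smurf 1d-a (0.0764), non-Smurf 1d-b (0.0787), non-Smurf 1d-c (0.055) and non-Smurf M-1 (0.0681).

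Other chaperones were mixed. Of 9 small heat shock proteins, 4 were upregulated (44.4%, against 9.22% over all genes tested, and 2 in the 1-day pools alone), among them Hsp23 (0.90 ± 0.18) and l(2)efl (0.62 ± 0.14), given as log2FC ± SE. Hsp26 had a log2FC of −0.06 (adjusted p = 0.432) and the cytosolic chaperone Hsp83 one of 0.06 (adjusted p = 0.423). The co-chaperone stv, the fly BAG3 homologue, was upregulated (log2FC = 1.16, SE 0.14, adjusted p = 0.00152). Of 21 genes of the unfolded protein response, 8 were upregulated (38.1%). In edgeR 0 of them were called lower, with 1 at an unadjusted p under 0.05, and DESeq2 called 1 lower. The chaperone of the endoplasmic reticulum Hsc70-3 (BiP) and its exchange factor Sil1 had log2FCs of 0.28 and 0.54, and both were called in all 8 fits that left out 1 pool.

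Detoxification genes did not move as a block. Of 33 cytosolic glutathione S-transferases, which conjugate glutathione to toxic compounds, 8 were upregulated and 3 downregulated (median 0.19). These shares were 24.2% and 9.09%, against 9.22% and 9.87% over all genes tested. The downregulated share was thus near that of all genes. GstD2 had 143, 23.8, 78.7 and 29.3 CPM in Smurfs, against 12.2, 7.27, 8.44 and 9.74 CPM in non-Smurfs (log2FC = 2.87, SE 0.56, adjusted p = 0.00899). Its order of pools followed that of Hsp70Bb, with Smurf M-4 and Smurf 1d-e high. GstE1, chosen after its values were seen, had 246, 135, 213 and 137 CPM in Smurfs, against 81.8, 88.4, 85.6 and 87.8 CPM in non-Smurfs (log2FC = 1.09, SE 0.19, adjusted p = 0.00527) and overlaps GstE10 on the other strand. GstE12 fell (log2FC = −0.59, SE 0.08, adjusted p = 0.00204). The upregulated count was 5 and the downregulated count 1 without Smurf 1d-e, non-Smurf 1d-a or non-Smurf 1d-b.

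Cytochrome P450 enzymes, which oxidise xenobiotics, hormones and lipids, leaned the other way, with 10 of 71 upregulated and 24 downregulated (median −0.29). Cyp6a8 rose, with 7.48, 10.3, 17.6 and 5.87 CPM in Smurfs, against 2.52, 2.58, 1.21 and 2.22 CPM in non-Smurfs (log2FC = 2.26, SE 0.38, adjusted p = 0.0047). Cyp4ac2 fell, with 2.28, 2.18, 4.22 and 4.20 CPM in Smurfs, against 9.9965, 20.1, 19.4 and 14.8 CPM in non-Smurfs (log2FC = −2.30, SE 0.30, adjusted p = 0.00185). The groups did not overlap for either gene. Cyp18a1, which inactivates ecdysone, was downregulated (log2FC = −1.07, SE 0.18, adjusted p = 0.00461). A long noncoding RNA, lncRNA:CR44138, was chosen after its values were seen and had 79.9, 13.4, 71.1 and 20.7 CPM in Smurfs, against 3.91, 3.12, 2.81 and 5.24 CPM in non-Smurfs (log2FC = 3.61, SE 0.60, adjusted p = 0.00478). It followed the same pools as GstD2 and overlaps CG9813 on the other strand. Of 249 lncRNA genes tested, 13 were upregulated and 13 downregulated, smaller shares than the 9.22% and 9.87% over all genes tested.

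Melanization, the deposition of pigment at wounds and around intruders, is carried out by prophenoloxidases from blood cells on substrates made from tyrosine. Of 18 genes of melanization and dopamine synthesis, 9 were upregulated and 3 downregulated (median 0.37). The enzymes that make dopamine and its derivatives rose. Tyrosine hydroxylase, encoded by ple, had 184, 123, 107 and 73.4 CPM in Smurfs, against 22.5, 16.8, 15.6 and 17.9 CPM in non-Smurfs (log2FC = 2.74, SE 0.27, adjusted p = 0.000747). Ebony (e), which conjugates dopamine to beta-alanine for cuticle tanning, had 63.8, 49.7, 51.2 and 24.4 CPM in Smurfs, against 4.97, 7.95, 5.63 and 4.50 CPM in non-Smurfs (log2FC = 3.04, SE 0.30, adjusted p = 0.000778). Dopa decarboxylase (Ddc) had 94.6, 91.9, 97.6 and 62.1 CPM in Smurfs, against 19.9, 20.2, 16.8 and 15.4 CPM in non-Smurfs (log2FC = 2.26, SE 0.16, adjusted p = 0.000178) and overlaps CG10561 on the other strand. In each of these genes Smurf 1d-f was the lowest Smurf and lay above the highest non-Smurf. Spn28Dc, a serpin that restrains phenoloxidase, was upregulated (log2FC = 2.78, SE 0.33, adjusted p = 0.00135).

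The prophenoloxidases themselves went down. PPO1, made by crystal cells, had 2.57, 10.014, 10.7 and 8.61 CPM in Smurfs, against 24.2, 25.7, 25.7 and 24.2 CPM in non-Smurfs (log2FC = −1.64, SE 0.34, adjusted p = 0.011). Smurf M-4 was the lowest pool, and the non-Smurf pools lay within a narrow range. PPO2, the crystalline form of crystal cells, was also downregulated (log2FC = −1.18, SE 0.24, adjusted p = 0.0102). Blood cell markers were mixed, with 3 of 15 upregulated (20.0%) and 4 downregulated (26.7%), against 9.22% and 9.87% over all genes tested. NimC1, a phagocytosis receptor of plasmatocytes, had 5.78, 8.27, 7.48 and 9.47 CPM in Smurfs, against 13.969, 24.2, 22.6 and 19.049 CPM in non-Smurfs (log2FC = −1.36, SE 0.20, adjusted p = 0.00285). The scavenger receptor Sr-CI and hemolectin (Hml), a clotting factor of plasmatocytes, were downregulated too, with log2FCs of −0.99 and −0.92. The members that rose were Tep2, Tep3 and Tep4, complement-like secreted proteins that the fat body makes as well. Of these Tep4 (0.39 ± 0.05) was called in all 8 fits that left out 1 pool.

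Many of the large decreases were in genes for making eggs. Yolk is produced by the fat body and the follicle cells, exported to the haemolymph and taken up by the oocyte. All 7 genes of the list of yolk proteins and yolk uptake were downregulated, with a median log2FC of −2.13. The list includes fit, a fat body peptide gene that is neither a yolk protein nor a yolk uptake gene. Yp1 (FBgn0004045, X from 10053811 to 10055498) had 2252, 1149, 2527 and 2195 CPM in Smurfs, against 10447, 9268, 9134 and 6673 CPM in non-Smurfs (log2FC = −2.13, SE 0.24, adjusted p = 0.0012). The yolk proteins Yp2 and Yp3 followed, with log2FCs of −2.61 and −2.36, and Smurf 1d-d was the lowest pool for each of the yolk protein genes. The yolk receptor of the oocyte, yl, was lower by little, with a log2FC of −0.21 (adjusted p = 0.0337), and was not called without Smurf 1d-d (0.0598), Smurf 1d-e (0.0759), Smurf 1d-f (0.0804), non-Smurf 1d-a (0.0823), non-Smurf 1d-b (0.0842) and non-Smurf M-1 (0.0741). Summed over the list, these genes took 6405, 3925, 7221 and 6112 CPM in Smurfs, against 28251, 23373, 24428 and 18174 CPM in non-Smurfs. The Smurf sums were all below the smallest non-Smurf sum.

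Vitelline membrane genes are switched on in follicle cells midway through oogenesis. Of 13 tested, 12 were downregulated (median −3.02). Vml, which encodes a vitelline membrane protein that also carries signals to the embryo, had 13.8, 0.145, 11.3 and 16.8 CPM in Smurfs, against 187, 70.9, 108 and 64.4 CPM in non-Smurfs (log2FC = −3.32, SE 0.67, adjusted p = 0.01). The eggshell gene psd had 7.94, 0.145, 5.10 and 5.81 CPM in Smurfs, against 74.5, 25.5, 39.1 and 18.4 CPM in non-Smurfs (log2FC = −3.02, SE 0.68, adjusted p = 0.0158). Both were close to absent in Smurf 1d-d and at one low level in the other Smurf pools. The eggshell gene dec (dec-1), chosen after its values were seen, had a similar pattern, with 95.9, 2.47, 96.5 and 44.8 CPM in Smurfs, against 1257, 429.7, 628 and 455 CPM in non-Smurfs. The number of members called was 7 without non-Smurf M-1 or non-Smurf 1d-b.

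Chorion genes come last, when the follicle cells amplify chorion DNA and build the outer shell. In the 8 pools, 4 of 11 were called lower, with a median log2FC of −2.82. Cp36 (FBgn0000359, X from 8479319 to 8480523), a major chorion protein gene, had 231, 0, 2.23 and 0.323 CPM in Smurfs, against 506, 677, 279.6 and 191 CPM in non-Smurfs. Smurf M-4 lay within the range of the non-Smurfs, and the 1-day Smurf pools had almost none. Its test over all pools gave log2FC = −2.82, SE 1.53, adjusted p = 0.231, and over the 1-day pools alone log2FC = −8.62, adjusted p = 0.00128. Cp7Fb had 7.83, 0.435, 0.922 and 0.215 CPM in Smurfs, against 151, 101, 73.010 and 77.3 CPM in non-Smurfs (log2FC = −5.42, SE 0.74, adjusted p = 0.00233), again with Smurf M-4 the highest Smurf. Without Smurf M-4, or in the 1-day pools alone, 10 of the 11 chorion genes were called lower. Summed over the list, chorion genes took 1299, 6.75, 175 and 51.7 CPM in Smurfs, against 2638, 3192, 2025 and 1217 CPM in non-Smurfs.

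The same pools separated in other genes with large decreases. The eggshell gene yellow-g2 had 8.70, 0.0726, 0.34 and 0.0538 CPM in Smurfs, against 119, 92.2, 47.9 and 27.7 CPM in non-Smurfs (log2FC = −4.97, SE 1.02, adjusted p = 0.0107), and its log2FC was −8.66 without Smurf M-4. CG13114 had 13.7, 0, 0.0485 and 0.0538 CPM in Smurfs, against 108, 114, 48.6 and 34.9 CPM in non-Smurfs (log2FC = −4.47, SE 1.13, adjusted p = 0.0254), with a log2FC of −10.71 without Smurf M-4, and it was not called without non-Smurf 1d-a (0.0738), non-Smurf 1d-b (0.0538) and non-Smurf M-1 (0.0583). CG43333 had 0.759, 0, 0.0971 and 0 CPM in Smurfs, against 21.1, 15.8, 7.32 and 4.07 CPM in non-Smurfs (log2FC = −5.77, SE 0.87, adjusted p = 0.00306). Smurf 1d-d, 1d-e and 1d-f each had under 1 CPM of these genes.

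Few genes of germ cells were called. Of 22 germline markers, edgeR called 0 higher and 1 lower, with 1 and 2 at an unadjusted p under 0.05, DESeq2 called 1 higher and 2 lower, and the median log2FC was 0.04. The share called lower in edgeR was 4.55%, against 9.87% over all genes tested. In edgeR 1 was called higher without Smurf 1d-e or non-Smurf 1d-c. Vasa (vas), an RNA helicase of germ cells (FBgn0283442, 2L from 15061656 to 15074311), had 238, 221, 210.4 and 232 CPM in Smurfs, against 199.8, 194, 220.2 and 235 CPM in non-Smurfs (log2FC = 0.08, SE 0.07, adjusted p = 0.426). Its pools interleaved. The maternal determinant osk had a log2FC of −0.11 (adjusted p = 0.0931). The downregulated member, aub, a piRNA-binding protein, had a log2FC of −0.14 and was not called without Smurf 1d-d (0.0535), Smurf 1d-e (0.0741), Smurf M-4 (0.0902), non-Smurf 1d-a (0.0547) and non-Smurf 1d-b (0.0513). Of 31 DNA replication genes, which are strongly used in the ovary, edgeR and DESeq2 called none in either direction, and 1 had an unadjusted p under 0.05 in edgeR. Without non-Smurf 1d-c, 1 was called higher.

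**Figure D3:**
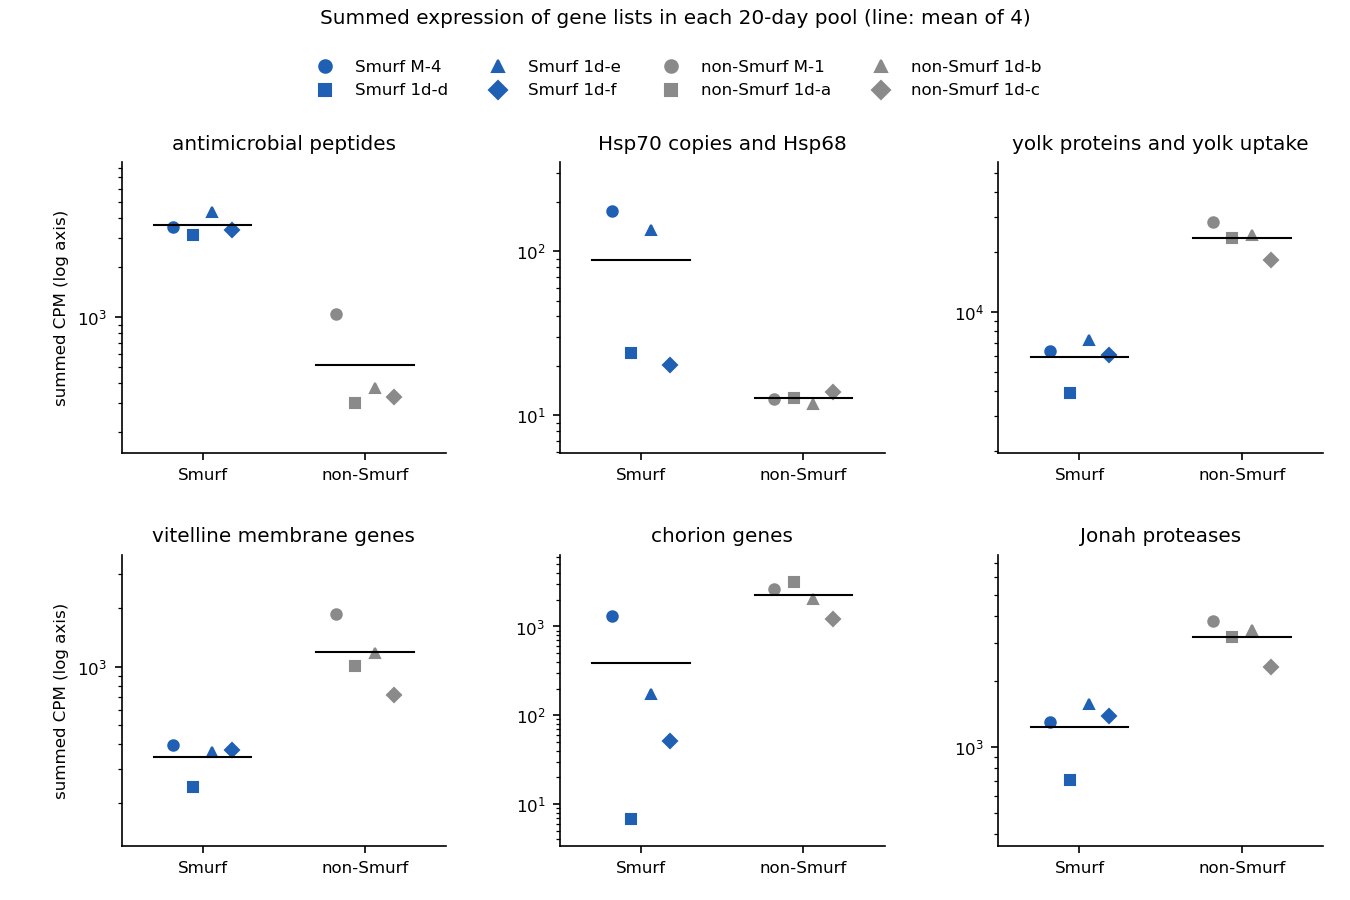
Summed expression of gene lists in each pool at 20 days (vertical axis, CPM, log scale), Smurfs left of non-Smurfs, with 1 point per pool and a line at the group mean. Yolk sums do not overlap, from 3925 to 7221 CPM in Smurfs and from 18174 to 28251 CPM in non-Smurfs, while the chorion sum of Smurf M-4 (1299 CPM) reaches the lowest non-Smurf (1217 CPM).

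Several other products of the fat body were lower as well. Of 6 fat body markers tested, 3 were downregulated (5 without Smurf 1d-e), and the median was −1.18. The lipoprotein apolpp, which carries lipid through the haemolymph, had 984, 575, 955 and 624 CPM in Smurfs, against 3836, 3404, 3081 and 2416 CPM in non-Smurfs (log2FC = −2.02, SE 0.21, adjusted p = 0.000885). The peptide gene fit, counted above in the yolk list, is a female-specific satiety signal of the fat body. It had 13.3, 11.4, 38.6 and 29.7 CPM in Smurfs, against 138, 157, 222 and 148 CPM in non-Smurfs (log2FC = −2.82, SE 0.37, adjusted p = 0.00202). The collagen IV chains Col4a1 and vkg, which the fat body secretes for basement membranes, had log2FCs of −1.22 and −1.18. The groups did not overlap in any of these genes, as in most DEGs. The storage protein gene Lsp2 had 4.79, 1.67, 69.9 and 4.09 CPM in Smurfs, against 49.982, 25.7, 37.6 and 54.7 CPM in non-Smurfs, and was not called (adjusted p = 0.484), with Smurf 1d-e far above the other Smurfs.

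The gut makes a large set of serine proteases that digest food. Of 16 Jonah proteases, 11 were downregulated (median −1.85), and 0 were higher in edgeR, at an unadjusted p under 0.05 as well, or in DESeq2. Jon99Ciii had 44.1, 16.8, 62.6 and 35.8 CPM in Smurfs, against 297, 177, 261 and 189 CPM in non-Smurfs (log2FC = −2.53, SE 0.35, adjusted p = 0.00236). Of 15 trypsins, 13 were downregulated, with a median of −1.02. The trypsin thetaTry had 6.02, 4.28, 12.9 and 10.3 CPM in Smurfs, against 32.5, 35.7, 48.1 and 35.7 CPM in non-Smurfs (log2FC = −2.16, SE 0.30, adjusted p = 0.00244). The trypsin alphaTry and the Jonah protease Jon65Aiii, both chosen after their values were seen, had log2FCs of −1.02 and −1.00. In all of these genes the highest Smurf pool was below the lowest non-Smurf pool. The trypsin count was 7 in the 1-day pools alone and 8 without non-Smurf 1d-a.

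Other digestive genes followed in part. Of 7 amylases and mannosidases, 4 were downregulated (7 without Smurf 1d-e). LManVI, a lysosomal-type alpha-mannosidase, had 16.2, 16.8, 47.5 and 60.7 CPM in Smurfs, against 152, 142, 189 and 209 CPM in non-Smurfs (log2FC = −2.28, SE 0.41, adjusted p = 0.00639). The amylase Amy-p had a log2FC of −0.56 (adjusted p = 0.0724). Of 11 maltases, 1 was upregulated and 1 downregulated (9.09% each, near the share over all genes tested), and Mal-A1, chosen after its values were seen, had 227, 534, 361 and 475 CPM in Smurfs, against 393, 484, 423 and 450.036 CPM in non-Smurfs with interleaved pools. Of 7 Npc2 family genes, which bind sterols or microbial lipids, 4 were downregulated and 1 upregulated. Npc2d had 2.80, 1.52, 5.58 and 5.97 CPM in Smurfs, against 24.2, 16.2, 18.011 and 14.9 CPM in non-Smurfs (log2FC = −2.18, SE 0.36, adjusted p = 0.00461). Npc2e, the member that rose, had 47.8, 47.5, 37.3 and 52.046 CPM in Smurfs, against 7.68, 18.5, 11.7 and 14.4 CPM in non-Smurfs (log2FC = 1.82, SE 0.23, adjusted p = 0.00175) and overlaps an antisense RNA gene.

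The peritrophic matrix is a chitin and mucin sleeve that separates food from the epithelium. Of its 11 genes, 2 were upregulated and 4 downregulated. The mucin Muc68D had 17.8, 84.8, 67.9 and 16.1 CPM in Smurfs, against 412, 365, 350.5 and 235 CPM in non-Smurfs (log2FC = −2.87, SE 0.53, adjusted p = 0.00692). The chitinase-like gene Cht4 had 236, 134, 133 and 119 CPM in Smurfs, against 36.5, 36.8, 53.5 and 36.2 CPM in non-Smurfs (log2FC = 1.93, SE 0.23, adjusted p = 0.00145). Smurf M-4 was the highest Smurf pool for Cht4, and non-Smurf 1d-b the highest non-Smurf. Peritrophin-15a was downregulated (log2FC = −1.00, SE 0.19, adjusted p = 0.00859).

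Septate junction genes encode products that seal the epithelium against leakage. Of 20 tested, 9 were upregulated and 11 were not called (median 0.18), and 0 were lower in edgeR, at an unadjusted p under 0.05 as well, or in DESeq2. Mesh, an organiser of the smooth septate junction of the gut (FBgn0051004, 3R from 31178389 to 31195762), had 880.3, 681, 743 and 694 CPM in Smurfs, against 451, 434, 370.4 and 335 CPM in non-Smurfs (log2FC = 0.91, SE 0.11, adjusted p = 0.00151). Its partners Ssk and Tsp2A were upregulated with log2FCs of 0.62 and 0.65. These 3 genes of the smooth junction were called in all 8 fits that left out 1 pool. The claudin kune had a log2FC of 0.06 (adjusted p = 0.51). The count of upregulated members was 5 with RLE size factors, in the 1-day pools alone, and without Smurf M-4, Smurf 1d-e, non-Smurf M-1 or non-Smurf 1d-b.

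Stem cells renew the gut epithelium when it is damaged. Of 14 intestinal stem cell and progenitor genes, 4 were upregulated (28.6%) and 1 downregulated (7.14%), against 9.22% and 9.87% over all genes tested. The EGF ligand vn, secreted by gut muscle, and the protease rho, which releases EGF ligands, had log2FCs of 0.66 and 1.33, and both were called in all 8 fits that left out 1 pool. The receptor Egfr itself was downregulated (log2FC = −0.62, SE 0.11, adjusted p = 0.00521). The number upregulated was 2 in 7 of the 8 fits that left out 1 pool, all except that without Smurf 1d-d, and edgeR called 0 higher in the 1-day pools alone, with 4 at an unadjusted p under 0.05.

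Nuclear genes of mitochondrial respiration were lower, most of them by small amounts. Of 70 genes of the respiratory complexes, 49 were downregulated and 21 were not called, the median log2FC was −0.26, and all 70 were negative, with log2FCs between −0.84 and −0.10. COX6B, a subunit of complex IV, had 156, 154, 163 and 161 CPM in Smurfs, against 205, 204, 220.2 and 185 CPM in non-Smurfs (log2FC = −0.36, SE 0.05, adjusted p = 0.00306) and overlaps CG18809 on the same strand. UQCR-14, a subunit of complex III, had a log2FC of −0.37. The count of downregulated subunits was 32 without Smurf M-4, 31 without non-Smurf 1d-a, and 21 in the 1-day pools alone. Of the 11 subunits encoded by the mitochondrial genome, edgeR called none (0 with an unadjusted p under 0.05) and DESeq2 called 1 lower, and their median was −0.10.

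Of 18 genes of the citric acid cycle, 9 were downregulated, among them Mdh2 (−0.29 ± 0.04) and Idh (−0.28 ± 0.04) with log2FC ± SE. The number was 5 without Smurf M-4 or non-Smurf 1d-b and 14 without non-Smurf 1d-c. Of 15 genes of fatty acid oxidation, 7 were downregulated, including Mcad (−0.34 ± 0.07), a medium-chain acyl-CoA dehydrogenase. This count was 4 without Smurf 1d-e, Smurf 1d-f, non-Smurf M-1 or non-Smurf 1d-b and 11 without non-Smurf 1d-c.

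Genes of lipid synthesis changed in part. Of 25 genes of lipid synthesis and storage, 2 were upregulated and 7 downregulated (11 without non-Smurf 1d-c). These shares were 8% and 28%, against 9.22% and 9.87% over all genes tested. The upregulated share was thus near that of all genes. Fatty acid synthase, FASN1, had 737, 615, 979 and 879 CPM in Smurfs, against 1334, 1705, 1529.8 and 1451 CPM in non-Smurfs (log2FC = −0.91, SE 0.14, adjusted p = 0.0033). The elongase eloF, which extends fatty acids in females, was downregulated (log2FC = −0.97, SE 0.14, adjusted p = 0.00258). The regulator SREBP, which controls fatty acid synthesis in flies, was upregulated (log2FC = 0.45, SE 0.04, adjusted p = 0.000778), as was the hormone-sensitive lipase Hsl (log2FC = 0.25, SE 0.06, adjusted p = 0.0152). FASN1 and SREBP pools did not overlap between groups.

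Several genes of sugar storage and its hormones were lower. Of 11 genes of glycogen and trehalose metabolism, 5 were downregulated, and 0 were higher in edgeR, at an unadjusted p under 0.05 as well, or in DESeq2. UGP, which makes UDP-glucose for glycogen, had 257, 251, 263 and 261 CPM in Smurfs, against 360.2, 402, 367 and 362 CPM in non-Smurfs (log2FC = −0.53, SE 0.04, adjusted p = 0.000386). The Smurf pools of UGP lay within 251 and 263 CPM. Trehalose phosphate synthase Tps1 and the gluconeogenic fructose-bisphosphatase fbp had log2FCs of −0.83 and −0.67. The receptor of adipokinetic hormone, AkhR, the fly counterpart of the glucagon receptor, had 20.9, 14.2, 20.3 and 13.3 CPM in Smurfs, against 45.5, 56.5, 45.6 and 35.017 CPM in non-Smurfs (log2FC = −1.41, SE 0.19, adjusted p = 0.00204). Hexokinase C, Hex-C, had 31.6, 25.8, 30.1 and 29.8 CPM in Smurfs, against 66.1, 79.5, 58.9 and 54.2 CPM in non-Smurfs (log2FC = −1.14, SE 0.12, adjusted p = 0.000885). The nutrient-sensing peptide of the fat body CCHa2 was downregulated (log2FC = −1.06, SE 0.18, adjusted p = 0.00504).

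Lactate dehydrogenase, Ldh, was the member of the glycolysis list that rose, with 153, 40.9, 108 and 47.3 CPM in Smurfs, against 24.8, 38.4, 30.6 and 26.2 CPM in non-Smurfs (log2FC = 1.54, SE 0.40, adjusted p = 0.0289). Smurf M-4 and Smurf 1d-e were again the high pools, and the other Smurf pools were close to the non-Smurf range. The call was not made without Smurf 1d-e (0.0667), Smurf M-4 (0.0543), non-Smurf 1d-a (0.0521), non-Smurf 1d-b (0.0748), non-Smurf 1d-c (0.0612) and non-Smurf M-1 (0.0765). In the 1-day pools alone the values were log2FC = 1.05, adjusted p = 0.118.

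One-carbon metabolism gave opposite changes within a short pathway. Gnmt, which spends S-adenosylmethionine on glycine, had 35.2, 28.7, 28.7 and 38.5 CPM in Smurfs, against 4.83, 6.45, 5.95 and 14.5 CPM in non-Smurfs (log2FC = 2.03, SE 0.31, adjusted p = 0.00358). Nmdmc, a folate enzyme of mitochondria, had 83.2, 70.5, 65.1 and 67.4 CPM in Smurfs, against 28.003, 25.8, 22.8 and 24.4 CPM in non-Smurfs (log2FC = 1.50, SE 0.09, adjusted p = 0.000113) and overlaps Rel on the same strand. The folate enzymes pug and Shmt were downregulated, with log2FCs of −0.83 and −0.31. Of 11 genes of the list 2 rose and 3 fell.

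Hormone genes changed in a few members. Of 11 juvenile hormone genes, 5 were downregulated (2 or 3 without Smurf M-4, Smurf 1d-d, Smurf 1d-e, non-Smurf M-1, non-Smurf 1d-a or non-Smurf 1d-b). Jhbp5, a member of the juvenile hormone binding protein family, had 3.27, 1.67, 7.28 and 1.88 CPM in Smurfs, against 35.1, 13.5, 33.1 and 32.7 CPM in non-Smurfs (log2FC = −2.98, SE 0.48, adjusted p = 0.00406), and overlaps Jhbp4 on the other strand. Of 28 neuropeptide genes, 3 were upregulated (10.7%) and 1 downregulated (3.57%), near or below the 9.22% and 9.87% over all genes tested. The upregulated count was 5 without Smurf 1d-d and 2 in each of the other 7 fits that left out 1 pool, and the downregulated count was 2 without Smurf 1d-f. Dh44, a diuretic hormone, had 11.5, 7.91, 10.1 and 7.05 CPM in Smurfs, against 4.30, 3.74, 3.46 and 3.02 CPM in non-Smurfs (log2FC = 1.33, SE 0.19, adjusted p = 0.00248). ITP, an antidiuretic ion transport peptide, was upregulated too (log2FC = 0.93, SE 0.13, adjusted p = 0.00236).

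Of 24 muscle genes, 6 were upregulated (25.0%, against 9.22% over all genes tested), and 3 were in the 1-day pools alone. Of 11 nervous system markers and 21 eye phototransduction genes none was called by edgeR or DESeq2, and 0 had an unadjusted p under 0.05 in edgeR. All 11 and all 21 had a positive log2FC, with medians of 0.25 and 0.16, so their values were slightly higher in Smurfs. Without Smurf 1d-d, 1 nervous system marker was called higher. Act88F, the actin of the indirect flight muscle, had 79.1, 79.7, 91.996 and 88.1 CPM in Smurfs, against 24.6, 27.6, 23.6 and 23.9 CPM in non-Smurfs (log2FC = 1.76, SE 0.07, adjusted p = 1.49e-05). The pools lay close together within each group, and the groups did not overlap. Myosin heavy chain, Mhc, chosen after its values were seen, had 430.2, 446, 596 and 631 CPM in Smurfs, against 553, 583, 491 and 496 CPM in non-Smurfs (adjusted p = 0.959). The synaptic gene nSyb, chosen in the same way, had a log2FC of 0.28 (adjusted p = 0.151).

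Few genes of protein synthesis and turnover were called, but most ribosomal protein genes had slightly lower values in Smurfs. Of 85 cytosolic ribosomal protein genes, 84 had a negative log2FC (median −0.11), 20 were lower at an unadjusted p under 0.05 and 1 was downregulated. Without non-Smurf 1d-c 37 were downregulated, and 0 without Smurf 1d-e, Smurf 1d-f, non-Smurf M-1, non-Smurf 1d-a or non-Smurf 1d-b. DESeq2 called 9 lower. Of 71 mitochondrial ribosomal protein genes, 69 had a negative log2FC, 22 were lower at an unadjusted p under 0.05 and 2 were downregulated (6 with DESeq2, 0 without Smurf M-4, non-Smurf M-1 or non-Smurf 1d-a, 4 without Smurf 1d-d), and of 34 proteasome subunits edgeR called none, with 3 at an unadjusted p under 0.05, and DESeq2 called 3 lower. Of 21 autophagy genes 4 were upregulated (19.0%, against 9.22% over all genes tested), among them the kinase Atg1 (0.30 ± 0.05). The count was 2 without Smurf 1d-e or non-Smurf M-1 and 2 in the 1-day pools alone. The inhibitor of apoptosis Diap1 had a log2FC of 0.48 and was called in all 8 fits that left out 1 pool.

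The series also holds Smurfs and non-Smurfs of 30 and 40 days, 6 pools of each, which allow the early-life difference to be set against later ones in a model of all 32 samples. In the 30-day group 1 Smurf and 1 non-Smurf pool carry a label of 32 days. The groups of 30 and 40 days also hold pools collected a few hours after the mixed pools, and the groups of 20 days hold none. Contrasts between ages thus also compare different mixes of collection times. Whether the Smurf effect itself varied with collection time was not tested. The Smurf effect at 20 days was not called different from that at 30 days for any of 10529 genes (edgeR, 0 called, 0.0%, 240 with an unadjusted p under 0.05, and DESeq2 called 0 with 277 under that value). Against 40 days, 27 genes were called (0.256%), 4 (0.038%) with a higher and 23 (0.218%) with a lower effect at 20 days, and 1322 had an unadjusted p under 0.05. DESeq2 called 131. All the named ones had an adjusted p of 0.049. Of the 32 fits that each left out 1 pool, 25 moved this count by over 1.5 times, from 0 without non-Smurf 1d-b at 20 days to 72 without Smurf 1d-r at 40 days, and the 1-day pools alone gave 0.

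Among the genes that differed from 40 days was ple, with log2FCs of 2.72 at 20 days, 2.07 at 30 days and 0.40 at 40 days and a log2 difference of 2.32 ± 0.52 (SE). The gene CG10814 had 150.2, 98.1, 105 and 94.6 CPM in Smurfs, against 10.3, 12.2, 5.39 and 11.7 CPM in non-Smurfs at 20 days, and log2FCs of 3.48 at 20 days, 1.90 at 30 days and 0.79 at 40 days. The serine protease gene CG5909 had log2FCs of 1.67 at 20 days, 0.99 at 30 days and 0.13 at 40 days. On the lower side, thetaTry had log2FCs of −2.19 at 20 days, −1.30 at 30 days and 0.02 at 40 days and the metallothionein MtnC, which binds heavy metals, −2.05 at 20 days, −0.99 at 30 days and 1.20 at 40 days. The chitin deacetylase gene Cda9 had log2FCs of −2.89 at 20 days, −2.04 at 30 days and 0.00 at 40 days. CG43333, which led the decreases at 20 days, gave −5.79 at 20 days, −2.95 at 30 days and 4.90 at 40 days. Its highest Smurf pool at 20 days had 0.759 CPM, so its log2FC at that age rests on few Smurf reads.

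The genes called at 20 days were followed in the other ages. The upregulated ones had a median log2FC of 0.32 at 30 days and 0.15 at 40 days, and the downregulated ones −0.52 at 30 days and −0.11 at 40 days. These genes were selected by their values at 20 days, and such a choice by itself gives smaller medians at other ages. Of the 1898 DEGs, 1865 had the same direction at 30 days and 1558 at 40 days. AMP genes had a median log2FC of 3.55 at 20 days, 3.003 at 30 days and 0.33 at 40 days in this model. The yolk list had medians of −2.15 at 20 days, −1.74 at 30 days and −0.34 at 40 days. Vitelline membrane genes had −3.06 at 20 days, −3.90 at 30 days and −1.14 at 40 days. These medians carry no test, and for most genes the difference between 20 and 40 days was not called. Setting the medians of 20 days against the later ones also mixes age with collection time. Only the later ages include pools collected a few hours after the mixed pools. The groups of 30 and 40 days hold the same mix of collection labels.

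**Figure D4:**
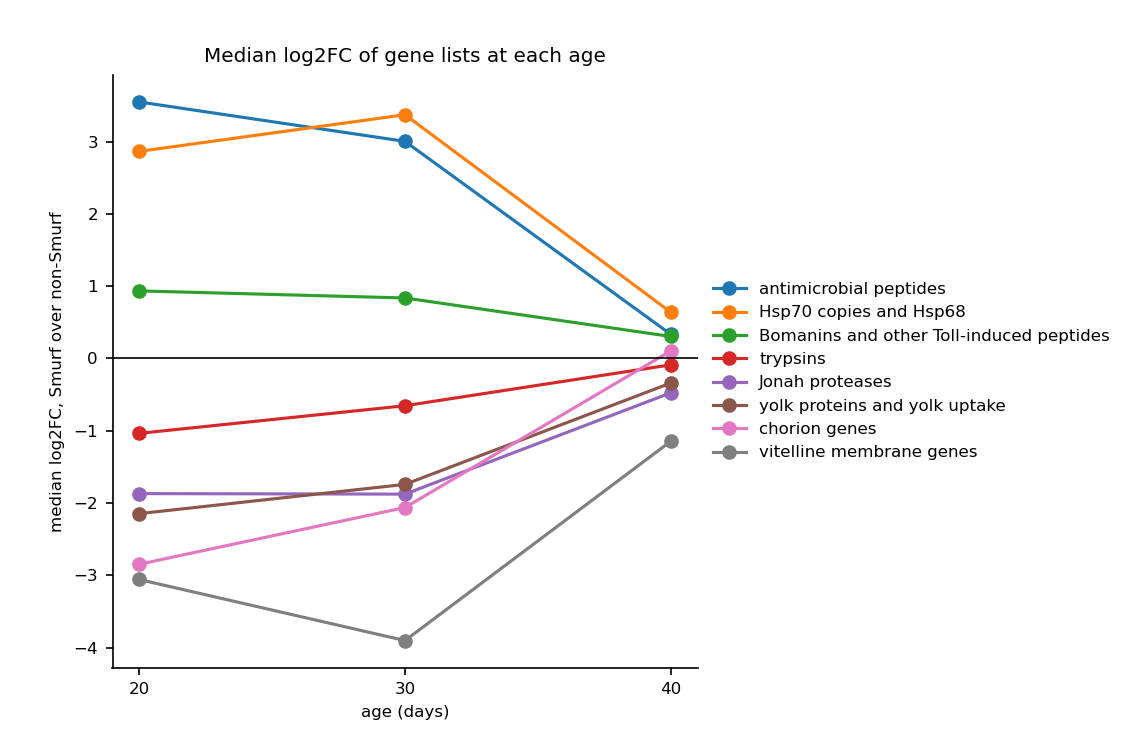
Median log2FC of gene lists (vertical axis, Smurf over non-Smurf) at 20, 30 and 40 days from the model of all 32 samples, with 1 line per list. The AMP median is 3.55 at 20 days and 0.33 at 40 days, and the yolk median −2.15 at 20 days and −0.34 at 40 days. The mix of collection times differs between 20 days and the later ages. The 40-day medians average over unlike Smurf pools, some of which clustered with non-Smurfs in the paper.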

How the data were processed

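RNA from pools of 8 whole females was sequenced by the authors (stranded mRNA libraries, paired ends, HiSeq4000), checked with FastQC, aligned with Hisat2 to BDGP6.95 and counted per gene with featureCounts. The strand setting of the counting was not given in the sources used here. The deposited values are raw counts for 17737 genes, of which 17599 were named and placed with the BDGP6.54 annotation, release 115. Of the 268 genes in the table of named genes, 125 overlap another gene, and their counts are less certain.

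The 4 Smurf and 4 non-Smurf pools of 20 days were compared with edgeR 4.0.16 in R 4.3.3 (TMM, filterByExpr, quasi-likelihood F test, Benjamini-Hochberg adjusted p under 0.05 over all genes tested). Every adjusted p at 20 days is from that fit unless stated otherwise. SEs were derived from the F statistic, and CPM used TMM library sizes. Each log2FC is Smurf over non-Smurf. Ages were compared by interaction contrasts in a model of 6 groups and 32 samples. Alternatives were RLE size factors, DESeq2 1.42.0, other count filters, the 1-day pools alone, collection event as a block, and leaving out each pool.

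Named genes were the 10 largest changes in each direction among DEGs that averaged 2 log2 CPM or more, up to 3 called extremes of each list in each direction, key members, and the 3 largest interactions in each direction. Exceptions are marked as chosen after their values were seen. Members and lists were chosen with earlier results of these data known, so lists are described by counts and medians and carry no test. Counting intervals cover counting error only. The fit was tested on simulated data. Promoter sequence was not analysed here.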

Additional observations from a re-analysis of the deposited data

Results flagged for a closer look

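Among 62 genes given per pool, 124 groups of 4 were checked for a pool far from the other 3, and 14 values stood apart. Chance sets apart about 1 in 20 groups. The cause was not tested for any of them.

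The mixed Smurf pool M-4 stood above the other Smurfs in 7 genes. Of the eggshell and other lowered genes, it had 7.83 CPM of Cp7Fb, 8.70 CPM of yellow-g2, 13.7 CPM of CG13114, 231 CPM of Cp36 and 0.759 CPM of CG43333. It also had 236 CPM of the chitinase-like gene Cht4 and 47.4 CPM of the Turandot TotC. Smurf 1d-e stood above the other Smurfs in the cecropin CecA1, with 117 CPM.

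In non-Smurfs, M-1 had the highest Drs value, 681 CPM. Non-Smurf 1d-b had the highest values of Drsl5 (27.4 CPM) and Cht4 (53.5 CPM). Non-Smurf 1d-c had the highest value of Gnmt, 14.5 CPM. Non-Smurf 1d-a had the highest value of UGP (402 CPM) and the lowest of Jhbp5 (13.5 CPM).

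For 7 of the genes given per pool the Smurf effect at 20 days differed from that at 40 days in the interaction test (edgeR, adjusted p = 0.049 for each). The log2 difference, 20 days minus 40 days with its SE, was −10.69 ± 2.22 for CG43333, −3.25 ± 0.69 for the metallothionein MtnC, −2.89 ± 0.60 for Cda9 and −2.21 ± 0.48 for thetaTry. It was 2.68 ± 0.57 for CG10814, 2.32 ± 0.52 for ple and 1.54 ± 0.34 for CG5909. The calls depend on single pools, as given in the next part. The ages also differ in their mix of collection times. With the collection event as a block, 26 genes were called in the comparison with 40 days.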

How the results depend on the processing

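The number of DEGs at 20 days was 1898 and fell to 1093 in the 1-day pools alone and to 1160 in the model of all 32 samples. Leaving out 1 pool gave between 1145 and 2116. RLE size factors, DESeq2, other count filters and the collection event as a block gave between 1756 and 2190. The comparison with 40 days called 27 genes, 131 with DESeq2, 1 with no filter, 4 with at least 10 counts in every sample and 0 in the 1-day pools alone, and between 0 and 72 when 1 pool was left out. The comparison with 30 days called 0 genes under each alternative. Of the 229 DEGs among the named genes, all kept their direction in the 1-day pools, and 161 were called there. Those pools also entered the main fit, so the kept direction is not independent evidence. Of the same 229, 228 were called with DESeq2, 225 with RLE size factors, and 162 in all 8 fits that left out 1 pool. The cause was not tested. No paired analysis was possible because the labels tie pools to a collection event but not to a partner pool, and the event as a block gave 1874 DEGs. With 4 pools in each group and 1 of them collected at another time, small changes near the threshold are the least certain, and genes with few reads, such as the late eggshell genes in Smurfs, are limited by depth.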

Other observations

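Of 21 genes of the vacuolar proton pump, which acidifies compartments and drives ion transport, 7 were downregulated and 1 upregulated (4 downregulated without Smurf M-4, Smurf 1d-d or non-Smurf 1d-a, and 12 without non-Smurf 1d-c). Vha100-4 had 1.87, 3.99, 7.43 and 3.39 CPM in Smurfs, against 23.4, 14.1, 11.8 and 12.1 CPM in non-Smurfs (log2FC = −1.87, SE 0.39, adjusted p = 0.0114). The highest Smurf pool was below the lowest non-Smurf pool. It overlaps cona on the other strand. Of 23 antioxidant genes, 7 were upregulated and 5 downregulated, and the upregulated count was between 1 and 4 without Smurf M-4, Smurf 1d-d, Smurf 1d-e or any 1 of the non-Smurf pools. Sod1, the cytosolic superoxide dismutase, had 243, 234, 256 and 241 CPM in Smurfs, against 305, 296, 305 and 264 CPM in non-Smurfs (log2FC = −0.26, SE 0.05, adjusted p = 0.0114). Mitochondrial Prx3, a peroxiredoxin, was lower by a similar amount (log2FC = −0.19, SE 0.04, adjusted p = 0.00984).

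Of 21 metal handling genes, 2 were upregulated and 2 downregulated (9.52% each, against 9.22% and 9.87% over all genes tested), which is near the share of all genes. The upregulated count was 4 without Smurf 1d-d, and the downregulated count was 3 without non-Smurf 1d-c and 1 in the other 7 fits that left out 1 pool. The transferrin family gene Tsf3 had 34.5, 33.1, 31.9 and 18.5 CPM in Smurfs, against 10.989, 10.9, 12.9 and 10.1 CPM in non-Smurfs (log2FC = 1.39, SE 0.19, adjusted p = 0.00231). The metallothionein MtnC had 0.467, 1.23, 1.60 and 0.377 CPM in Smurfs, against 3.31, 4.14, 3.94 and 3.76 CPM in non-Smurfs (log2FC = −2.03, SE 0.38, adjusted p = 0.00774), while MtnA, a further metallothionein, had a log2FC of −0.07 (adjusted p = 0.772). Of 12 circadian clock genes, 2 were upregulated (16.7%) and 1 downregulated (8.33%). The upregulated count was 0 without Smurf M-4, Smurf 1d-e, non-Smurf M-1 or non-Smurf 1d-b. The downregulated one was cry, which encodes the light sensor cryptochrome, with 26.7, 29.3, 43.6 and 38.5 CPM in Smurfs, against 51.6, 63.2, 60.5 and 52.5 CPM in non-Smurfs (log2FC = −0.72, SE 0.15, adjusted p = 0.0124). Obp19c, an odorant-binding protein family gene, had 3.27, 0.798, 3.45 and 1.08 CPM in Smurfs, against 41.5, 27.4, 23.8 and 22.995 CPM in non-Smurfs (log2FC = −3.71, SE 0.42, adjusted p = 0.0012). For Tsf3, cry and Obp19c the groups did not overlap. The larval serum and amino acid catabolism list had 5 of 13 members downregulated (8 without Smurf 1d-f and 3 without non-Smurf 1d-b), among them ry, xanthine dehydrogenase (log2FC = −0.86, SE 0.11, adjusted p = 0.00152).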
